A study of Mus musculus and Homo sapiens with 41 samples.

Results

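The polycomb repressive deubiquitinase (PR-DUB) removes monoubiquitin from Lys119 of histone H2A (H2AK119ub), the mark that PRC1 places. Its catalytic subunit is BAP1, ASXL1, ASXL2 or ASXL3 activate it, and MBD5, MBD6, FOXK1, FOXK2, HCFC1 and OGT are partners of the complex. Polycomb marks are commonly found at CpG-rich promoters in embryonic stem cells, and BAP1 limits their spread elsewhere in the genome. The genes that encode these 10 proteins were taken here as a list, and H2AK119ub was measured at the genes themselves. All 10 were found among 21911 mouse protein-coding genes (Bap1, Asxl1, Asxl2, Asxl3, Mbd5, Mbd6, Foxk1, Foxk2, Hcfc1 and Ogt), and all 10 among 20007 human ones by their upper-case symbols.

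CUT&Tag of H2AK119ub was available from 39 libraries in 13 groups of 3, and CUT&Tag of BAP1 from 2 libraries of untransfected wild-type (WT) mouse embryonic stem (mES) cells. The sample titles name no experiments, and untransfected WT and Tet2 KO mES cells were grouped here as an experiment. Another held siRNA-treated mES cells, with WT and Tet2 KO cells given the control siNC and Tet2 KO cells given siMbd6 or siNsun2. Mouse haematopoietic stem and progenitor cells (HSPCs, bone marrow Lin-c-Kit+ cells of young adult mice) were WT with shNC, Tet2 KO with shNC or Tet2 KO with shMbd6. The human erythroleukaemia line K562 was WT with siNC or TET2 KO with siNC, siMBD6 or siNSUN2. All knockdown groups were therefore KO, and no WT knockdown group was analysed here. The WT and KO mES cells are separate lines, as are the WT and KO K562 cells, so that genotype and line cannot be told apart. The study describes its replicates as biological, but neither the labels nor the methods say for these libraries which cultures or animals they came from, and p-values measure the spread between these libraries. A list of peaks of a chromatin mark can check neither the knockout and knockdown nor the cell type.

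The value given below is the length of sequence under H2AK119ub peaks, in kb, either in the 10-kb window centred on the annotated transcription start site (TSS) or in the gene body. Sequencing depth is unknown, and the length of each peak list stands beside the results as the nearest measure of yield. Untransfected mES libraries and the WT siNC libraries held 24360 to 37392 peaks, whereas the KO libraries with siNC, siMbd6 or siNsun2 held 4251 to 12139. Replicate 1 had the shortest list in every mES H2AK119ub group, for example 24913 peaks against 36017 and 37371 in untransfected WT. How far this lowers the replicate 1 values was not tested. HSPC lists held 3979 to 4629 peaks in WT shNC, 1398 to 1451 in KO shNC and 7650 to 8286 in KO shMbd6, and K562 lists held 1919 to 4575. Peaks on the Drosophila spike-in chromatin numbered 205 to 231 in the HSPC KO shNC libraries and 48 to 95 in the other HSPC libraries. In bulk libraries, a smaller share of marked cells and less mark per cell cannot be told apart.

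H2AK119ub at these genes recurred mainly at a small number of fixed places. Sequences of some of these places are shown first, since the later values are lengths of peaks over such places. Not all are printed, and the Mbd5 promoter region, the Foxk1 first-intron region and the Asxl3 regions are among those left out. The Mbd5 stretch shown lies 298.5 kb into the gene, outside the TSS window, so the Mbd5 window values below do not come from it. Each line gives at most 200 bases, chosen as the stretch under the most peaks that lies outside annotated UTRs, with CpG dinucleotides in capitals.
Bap1, between the Phf7 and Bap1 start sites, mm10 chr14:31251318-31251449, plus strand: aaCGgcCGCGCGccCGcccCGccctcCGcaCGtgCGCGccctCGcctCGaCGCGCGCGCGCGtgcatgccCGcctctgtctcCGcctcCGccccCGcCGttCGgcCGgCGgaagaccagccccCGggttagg
Asxl1, just upstream of the start site, mm10 chr2:153345581-153345780, plus strand: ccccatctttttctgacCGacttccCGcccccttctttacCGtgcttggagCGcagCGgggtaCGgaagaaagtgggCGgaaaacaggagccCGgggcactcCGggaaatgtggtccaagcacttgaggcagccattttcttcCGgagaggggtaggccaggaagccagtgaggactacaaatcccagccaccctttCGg
Mbd6, upstream of the neighbouring Ddit3 start site, mm10 chr10:127290574-127290773, plus strand: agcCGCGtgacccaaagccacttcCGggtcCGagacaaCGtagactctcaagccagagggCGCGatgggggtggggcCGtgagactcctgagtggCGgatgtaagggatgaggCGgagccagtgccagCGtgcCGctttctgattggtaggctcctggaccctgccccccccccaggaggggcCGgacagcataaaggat
Mbd5, inside an intron, mm10 chr2:49247879-49248078, plus strand: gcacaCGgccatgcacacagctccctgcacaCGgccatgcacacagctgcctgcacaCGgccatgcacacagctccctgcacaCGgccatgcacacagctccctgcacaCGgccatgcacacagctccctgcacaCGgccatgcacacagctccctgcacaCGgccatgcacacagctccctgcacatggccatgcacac
Foxk1, inside an intron, mm10 chr5:142440542-142440741, plus strand: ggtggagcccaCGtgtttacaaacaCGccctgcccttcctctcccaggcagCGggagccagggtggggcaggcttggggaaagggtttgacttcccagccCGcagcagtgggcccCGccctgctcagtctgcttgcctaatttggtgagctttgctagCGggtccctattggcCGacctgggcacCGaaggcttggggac
FOXK1 of K562 cells, inside an intron, hg38 chr7:4745114-4745313, plus strand: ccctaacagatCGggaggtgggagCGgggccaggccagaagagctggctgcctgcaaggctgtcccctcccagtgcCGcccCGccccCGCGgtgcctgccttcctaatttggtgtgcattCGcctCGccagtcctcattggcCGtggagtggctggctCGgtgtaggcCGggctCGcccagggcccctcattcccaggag
FOXK2 of K562 cells, inside an intron, hg38 chr17:82586282-82586481, plus strand: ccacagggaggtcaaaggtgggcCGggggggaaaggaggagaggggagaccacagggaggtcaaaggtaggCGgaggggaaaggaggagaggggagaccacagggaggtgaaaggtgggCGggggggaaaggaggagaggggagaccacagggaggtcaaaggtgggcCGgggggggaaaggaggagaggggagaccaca
The Bap1 stretch, from 132 bases to 1 base before the start site, was 81.1% G or C and held 27 CpGs. It lay under peaks of 5 of the 7 libraries with a peak there. The part under all 7 was centred at -273 bases, and the whole region was 58.8% G or C. The Mbd5 intronic stretch was a tandem repeat, with 98.3% of its bases equal to the base 26 positions further on, and the FOXK2 stretch was also repetitive, with 77.0% equal at a distance of 48 bases. Among the other printed stretches the highest such share was 45.0%, at Bap1. The reference given here masks none of the Mbd5 intronic region as a repeat. Whether reads map uniquely to these repeats was not tested.

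In untransfected WT mES cells, 7 of the 10 genes had an H2AK119ub peak in their TSS window in at least 2 of 3 libraries, beside 55.7% of all windows. Bap1 had the longest coverage of the 10, with 0.609, 0.832 and 0.630 kb in replicates 1, 2 and 3 (mean 0.690 ± 0.123 kb, SD, n = 3), more than 90.5% of all windows in that group. Mbd5, with 0.550, 0.449 and 0.551 kb (0.517 ± 0.0586), and Mbd6, with 0.358, 0.427 and 0.433 kb (0.406 ± 0.0417), were also covered in all 3. Foxk1 had 0.546, 0.375 and 0.371 kb, which overlapped the Mbd6 values. Asxl3 (0, 0.642 and 0.277 kb), Asxl1 (0, 0.329 and 0.449 kb) and Foxk2 (0.273, 0.204 and 0 kb) were each covered in 2 libraries. The values of Bap1 lay above those of Mbd5, Foxk1 and Mbd6 in every library, and those of Foxk2 lay below all 4, whereas each neighbouring pair in the order Mbd5, Foxk1, Mbd6, Asxl3, Asxl1 and Foxk2 overlapped. Asxl2 was at 0 in these 3 libraries.

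Hcfc1, a host cell factor that scaffolds chromatin complexes, and Ogt, the O-GlcNAc transferase that modifies it, had no H2AK119ub peak in the window or gene body in any of 27 mouse libraries, and neither did HCFC1 and OGT in 12 K562 libraries. Both genes lie on the X chromosome in mouse and human. In untransfected WT mES cells 256 of 948 X-linked windows had a peak in at least 2 of 3 libraries, against 11949 of 20963 windows elsewhere (57.0%), so that an uncovered X-linked window was common. MBD6 and ASXL3 had no peak in K562 cells either.

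**Figure D1:**
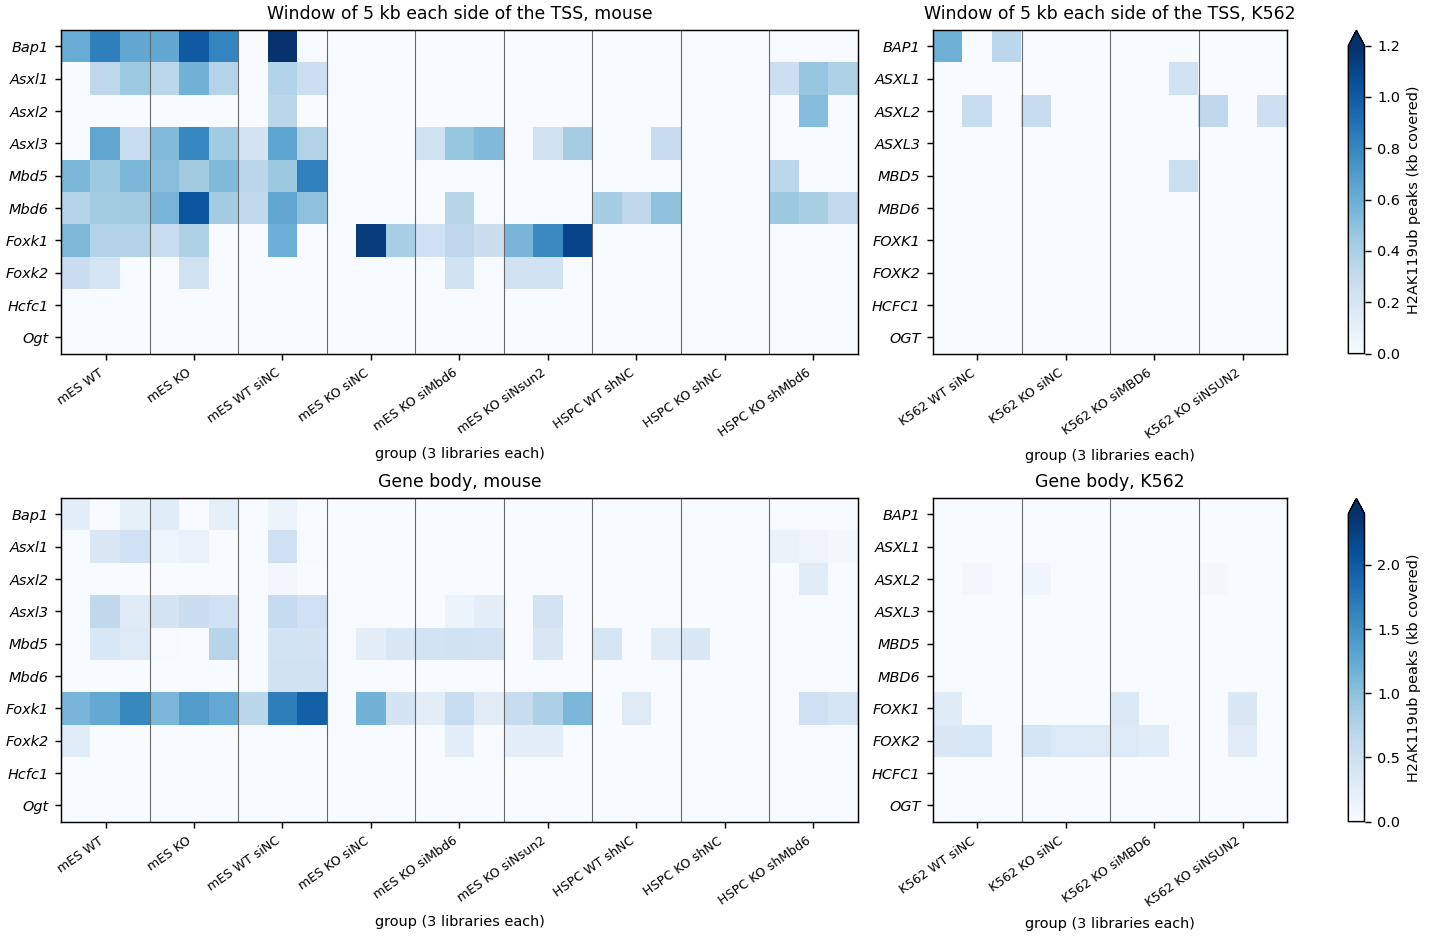
Length covered by H2AK119ub peaks (kb, colour) at the 10 genes in each of 27 mouse and 12 K562 libraries, in the TSS window (top) and the gene body (bottom), with vertical lines between groups. Coverage was frequent in untransfected and WT siNC mES cells and sparse in the other groups, and Hcfc1 and Ogt were at 0 throughout.

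The peaks sat at different places relative to each start site. At Bap1, all 7 peaks lay at or next to the promoter shared with Phf7, which is transcribed in the opposite direction. Together they ran from -1189 to 276 bases relative to the Bap1 start site. The middle of their common part was at -273 bases, 138 bases after a start site of Phf7. The fold enrichment of these peaks over the local background of their own library was 3.85 to 4.44. Asxl1 promoter peaks, in 10 of 27 libraries, ran from -432 to 162 bases relative to its start site, with a fold enrichment of 4.07 to 6.17. Asxl1 also had intronic peaks 18.9 kb into the gene in WT replicates 2 and 3 and WT siNC replicate 2, where 81.5% of the region is masked as repeat, and 25.3 kb into it in WT siNC replicate 2. They made up most of the Asxl1 body values of these libraries (0.339, 0.481 and 0.488 kb). Mbd5 peaks at the promoter, also in 10 libraries, ran from -575 to 427 bases relative to the start site and over the divergent gene Orc4. They reached the highest fold enrichment of the mouse peaks at these genes, 7.06. The middle of their common part was at -277 bases, 3 bases after a start site of Orc4, so the Mbd5 window values are also values of the Orc4 promoter region.

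The Mbd6 window was covered away from its start site. All 16 of its peaks lay between -2175 and -1148 bases relative to the Mbd6 start site, and the middle of their common part was at -12 bases from a start site of Ddit3, a stress-response transcription factor gene that neighbours Mbd6. No peak in any library touched the Mbd6 start site itself, so that the Mbd6 window values below are values of the Ddit3 promoter region. Inside the Mbd6 gene, peaks over a coding exon about 5.95 kb after the start site were listed in WT siNC replicates 2 and 3 only, with fold enrichments of 2.99 and 3.14, near the lower end of the 2.99 to 7.06 at these mouse genes.

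Foxk1 encodes a forkhead factor that brings BAP1 to DNA, and its peaks formed 3 groups that recurred in 10 or more libraries. One lay in the first intron, within 549 to 1926 bases of the start site, in 14 libraries. Its peaks did not all overlap, and no base of it was under more than 8 peaks. The others lay in introns 39.2 kb and 50.5 kb into the gene, in 12 and 10 libraries. Further peaks lay 26.6 kb into the gene in 2 libraries, replicate 3 of WT and of WT siNC, and 46.9 kb into it in 1. Both of the regions at 39.2 and 50.5 kb were listed in all 9 libraries of untransfected WT, untransfected KO and WT siNC mES cells. In the 9 KO libraries given an siRNA, the region at 39.2 kb was listed in none and that at 50.5 kb in 1 (siMbd6 replicate 2). A peak within the first-intron region was listed in 8 of 9, not always over the same bases as in WT. It ran from 1434 to 1848 bases in KO siNC replicate 3 and from 576 to 841 in siMbd6 replicate 3. In untransfected WT replicate 2 it ran from 689 to 1063 bases. In HSPCs the region at 39.2 kb was listed in WT shNC replicate 2 and in KO shMbd6 replicates 2 and 3. A local alignment of the mouse region at 39.2 kb with the K562 FOXK1 region at 63.0 kb held 169 identical bases in 287 columns, with an alignment score of 87, and the other 13 pairings of mouse Foxk1 or Foxk2 regions with the K562 FOXK1 or FOXK2 regions scored 18 to 48.

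Mbd5, which encodes a methyl-CpG-binding-domain protein of the complex, had an internal region as well as its promoter region. The internal region lay 298.5 kb into the gene, 1814 bases after the nearest annotated Mbd5 start site, and was listed in 11 of 27 libraries. It was listed in 6 of the 9 KO siRNA mES libraries, where the promoter region was listed in none. In the 9 untransfected and WT siNC mES libraries it was listed in 2, and the promoter region in all 9. Asxl3 had a region between -1489 and -982 bases relative to its start site in 14 libraries, another across the start site in 6, and an intronic one at 94.9 kb in 8, all of whose bases are masked as repeats in the reference. Asxl2 had promoter peaks in 2 libraries only, WT siNC replicate 2 and HSPC KO shMbd6 replicate 2.

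**Figure D2:**
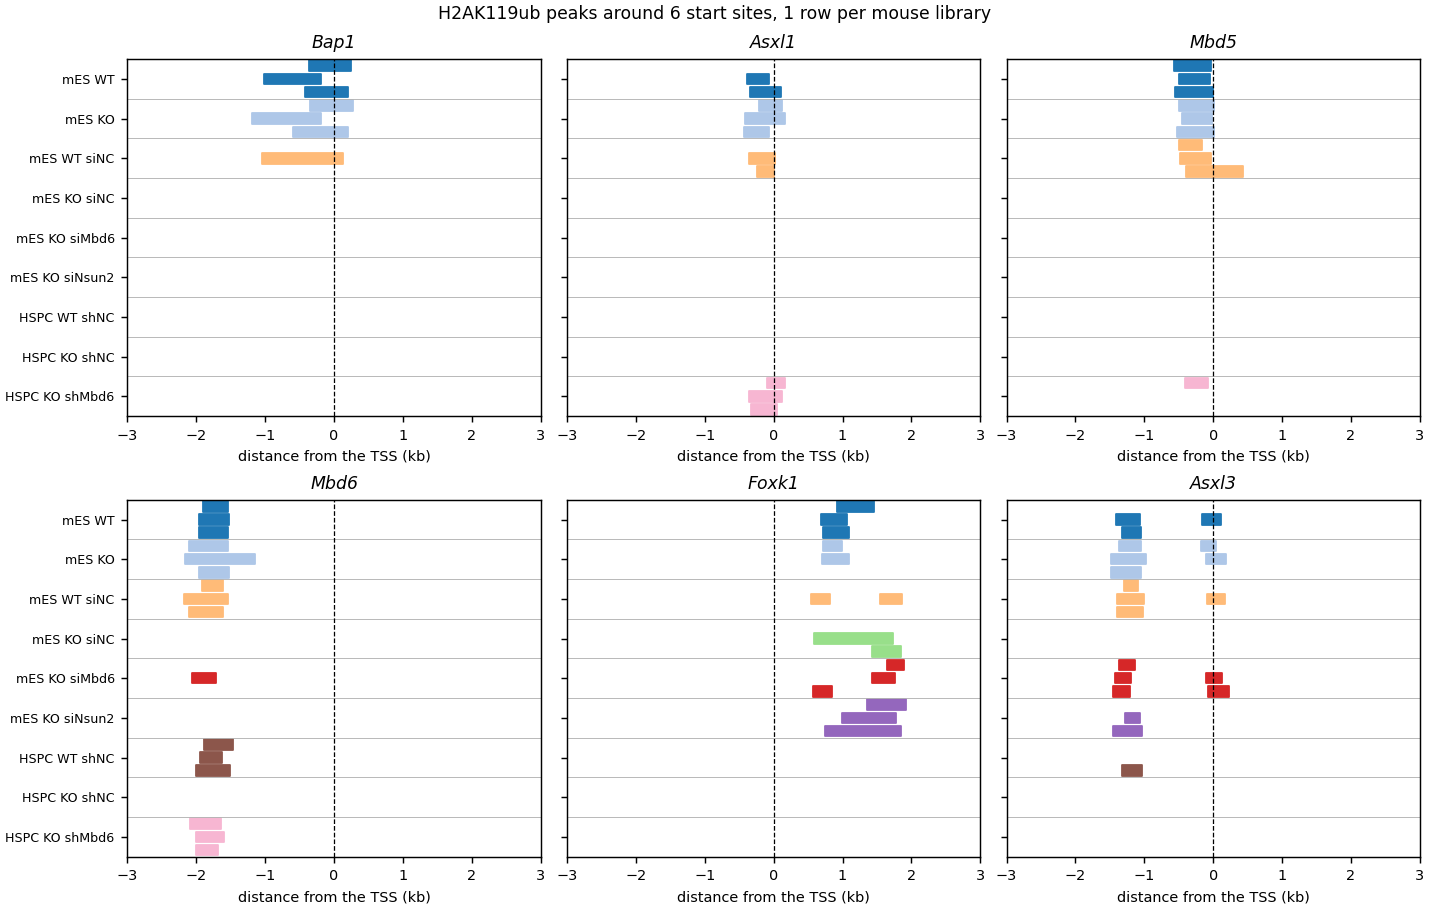
H2AK119ub peaks (bars) within 3 kb of the start site of 6 of the genes, by distance from the start site in kb, with 1 row per mouse library and the dashed line at the start site. Peaks at Bap1, Asxl1 and Mbd5 lay over the start site or ended shortly before it. Those at Mbd6 lay between -2175 and -1148 bases and those at Foxk1 between 549 and 1926 bases.

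**Figure D3:**
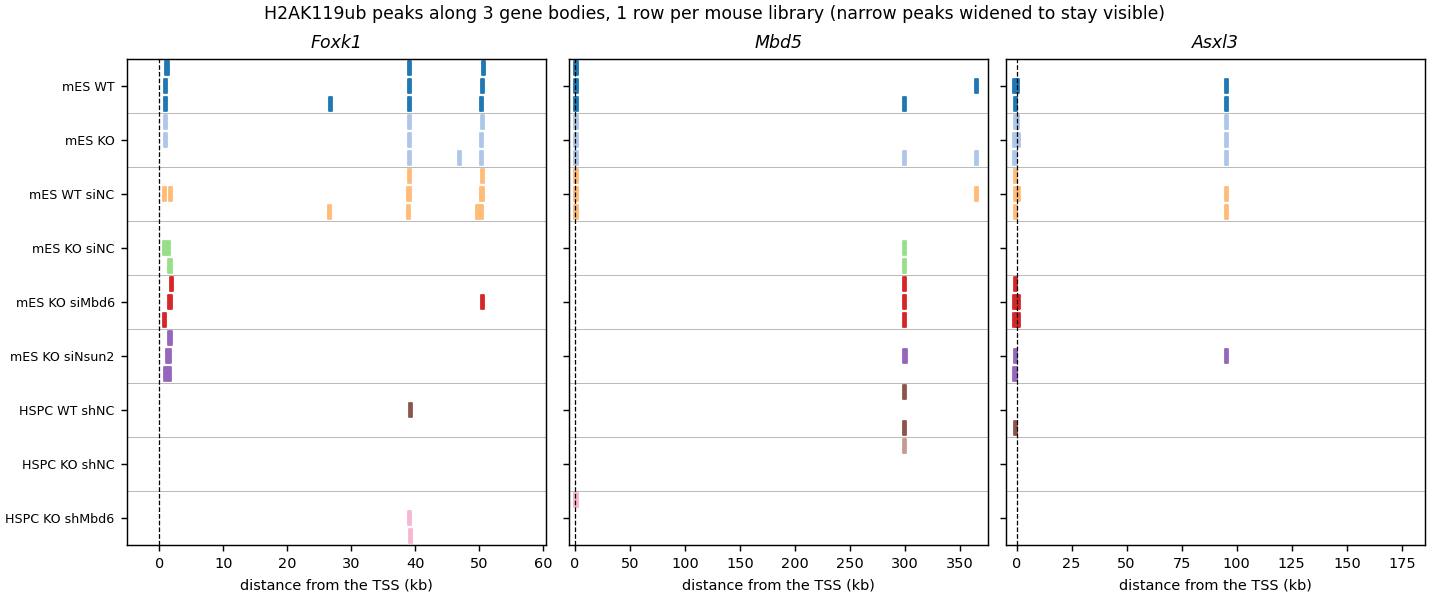
H2AK119ub peaks (bars, narrow ones widened to stay visible) along the Foxk1, Mbd5 and Asxl3 genes by distance from the start site in kb, with 1 row per mouse library. The Foxk1 regions at 39.2 kb and 50.5 kb were in all 9 libraries of the upper 3 groups, and the Mbd5 region at 298.5 kb was in 6 of the 9 KO siRNA libraries below them.

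Loss of Tet2 in untransfected mES cells gave no call at these genes. Of the 10 TSS windows, 7 were covered in at least 3 of the 6 libraries and were tested, and 0 passed limma with an adjusted p under 0.05, as did 0 of 5 gene bodies tested. Over all windows tested, 0.0234% were called higher and none lower in KO, while 710 of 12820 had an unadjusted p under 0.05. Bap1 had 0.632, 1.004 and 0.807 kb in KO replicates 1, 2 and 3 (0.814 ± 0.186), overlapping its WT values. Mbd6 had 0.567, 1.023 and 0.429 kb in KO, of which the lowest lay within the WT range. Asxl1 was covered in all 3 KO libraries (0.336, 0.574 and 0.367 kb) and Asxl3 likewise (0.532, 0.800 and 0.440 kb), and both overlapped WT. None of the 7 windows separated the groups, beside 8.09% of all windows with every KO library above every WT library and 2.80% the other way. The Bap1 difference was 0.12 ± 0.119 kb (SE, limma adjusted p = 0.957). For gene bodies, 0.16% were called higher, and 8.1% and 3.79% did not overlap as higher and lower in KO.

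With siNC, the same genes were nearly free of H2AK119ub peaks in KO mES cells. In WT siNC libraries, Mbd5 had 0.338, 0.451 and 0.827 kb, Mbd6 0.316, 0.642 and 0.494 kb, and Asxl3 0.215, 0.643 and 0.378 kb in its window, and in KO siNC all 3 genes were at 0 in all 3 libraries. The differences were -0.54 ± 0.0994 kb for Mbd5 (SE, limma adjusted p = 0.000926), -0.48 ± 0.101 kb for Mbd6 (limma adjusted p = 0.00189) and -0.41 ± 0.130 kb for Asxl3 (limma adjusted p = 0.0175). These 3 of 5 windows tested stood beside 71.9% of all 10756 windows called lower, and the 3 whose groups did not overlap stood beside 73.6%, so the genes fell no more often than windows at large. Among the siRNA libraries, Mbd5 was covered in the 3 WT siNC ones alone. It passed the filter on low values through them and so could only be lower. Of the 7755 windows called, 3518 were likewise covered in just the WT siNC or just the KO siNC libraries, which fixed their direction. Windows higher in KO made up 0.214% by the test and 0.307% by groups that did not overlap. Where all libraries of a group are at 0, the fit sees no variation in it and the p may be too small, here and below.

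Bap1, Asxl1 and Asxl2 did not enter this test, since fewer than 3 of the 12 siRNA libraries had a peak in their windows. Bap1 was covered in WT siNC replicate 2 alone (1.187 kb), and Asxl1 in WT siNC replicates 2 and 3 (0.373 and 0.259 kb). Foxk1 went the other way without passing the test, with 0, 0.595 and 0 kb in WT siNC and 0, 1.148 and 0.415 kb in KO siNC (limma adjusted p = 0.303). Over its gene body Foxk1 was lower in KO siNC, at 0, 1.148 and 0.415 kb against 0.685, 1.672 and 1.952 kb in WT siNC, a difference of -0.92 ± 0.361 kb (limma adjusted p = 0.0470). These values overlapped, and the sign turned to 0.12 kb higher (limma adjusted p = 0.792) once libraries were scaled to equal total covered length. The call was also lost without WT siNC replicate 2 or 3 or KO siNC replicate 1 or 3 (limma adjusted p up to 0.164). Foxk1 was the 1 gene body called of 4 tested, beside 67.9% of all gene bodies called lower and 0.384% higher (68.3% in either direction), with 71% not overlapping as lower and 0.554% as higher.

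Scaling also removed the calls of Mbd6 (-0.16 kb, limma adjusted p = 0.211) and Asxl3 (-0.13 kb, limma adjusted p = 0.341). Mbd5 was still called (-0.18 kb), in the direction that the filter had fixed, and 35.8% of all windows were then called lower. Over all windows, the median difference moved from -0.42 to -0.11 kb with scaling. Without WT siNC replicate 2, Asxl3 no longer passed (limma adjusted p = 0.0963), and Mbd5 could not be tested without any 1 of the 3 WT siNC libraries because its coverage rested on those 3.

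The KO minus WT difference of the siNC experiment was more negative than that of the untransfected one at Mbd5 (-0.52 ± 0.128 kb, SE, limma adjusted p = 0.00513), Mbd6 (-0.75 ± 0.183 kb, limma adjusted p = 0.00470) and Asxl3 (-0.70 ± 0.223 kb, limma adjusted p = 0.0208), as at 45% of all 13874 windows tested. Asxl1 (-0.38 kb, limma adjusted p = 0.0542), Bap1 (-0.52 kb, limma adjusted p = 0.180) and the gene bodies did not pass. After scaling none of the 3 calls held (limma adjusted p = 0.0618, 0.188 and 0.234). The sample titles name no batch, and transfection and any batch difference between these experiments cannot be told apart in this difference.

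**Figure D4:**
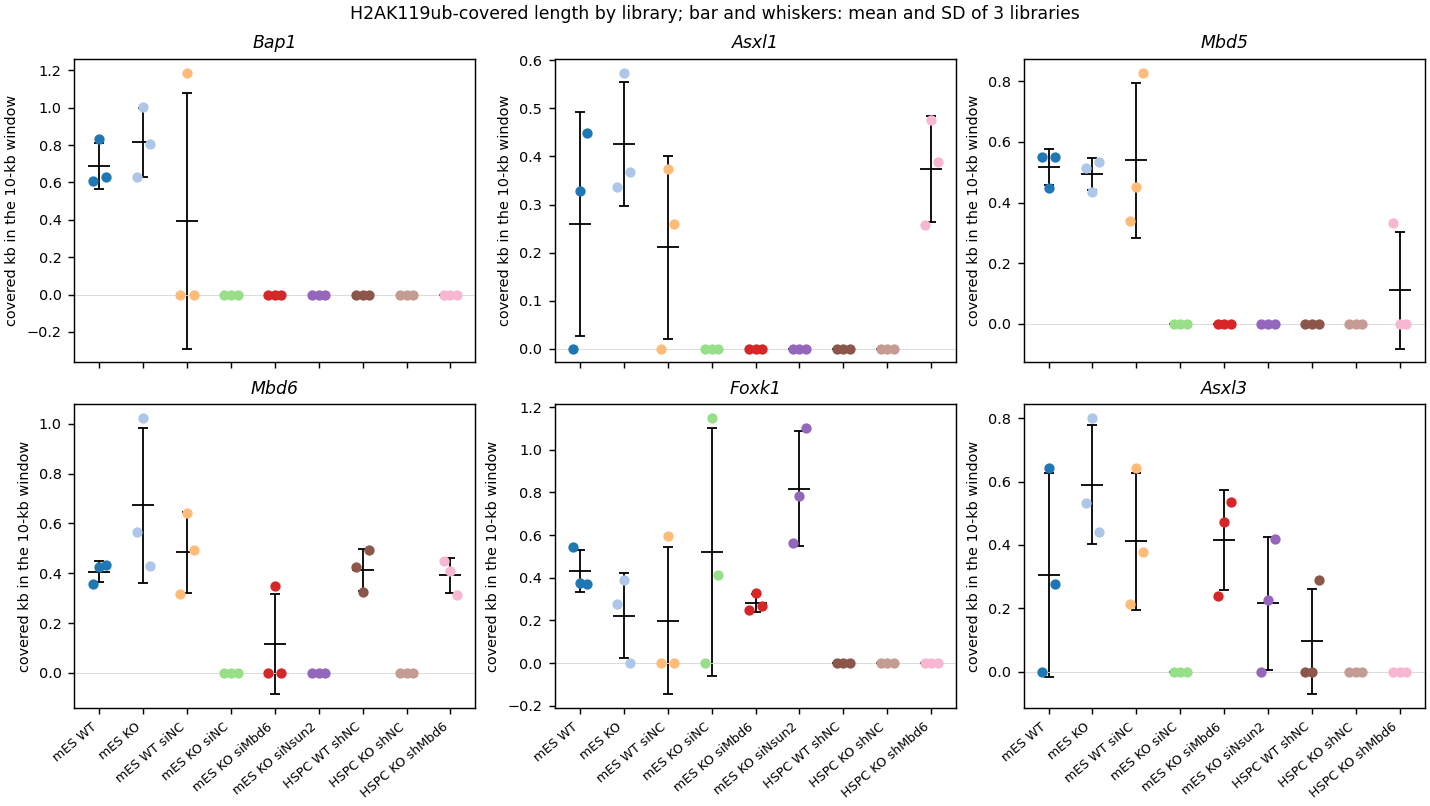
Length covered by H2AK119ub peaks (kb, vertical axis) in the TSS window of 6 of the genes in each of 27 mouse libraries (points), with the mean and SD of each group of 3. Mbd5 and Mbd6 were at 0 in all 3 KO siNC libraries, Asxl1 and Mbd6 were above 0 in all 3 HSPC KO shMbd6 libraries, and Foxk1 stayed covered in KO siRNA mES cells.

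Depletion of Mbd6 in KO mES cells was followed by Asxl3 values of 0.238, 0.474 and 0.537 kb, all above the 0 kb of KO siNC. The difference of 0.42 ± 0.130 kb had an unadjusted limma p of 0.0105 and did not pass the correction (limma adjusted p = 0.984). The window of 1 of 5 genes tested was thus above the control in every library, beside 2.29% of all windows, and 0.158% of windows were called higher (0.177% in either direction). The targeted gene Mbd6 had 0, 0.349 and 0 kb with siMbd6 and was at 0 in KO siNC. At the Mbd5 body the 3 siMbd6 libraries (0.441, 0.460 and 0.433 kb, all from the repeat at 298.5 kb) lay above the KO siNC libraries (0, 0.235 and 0.347 kb), with a limma adjusted p of 1. Over all gene bodies 2.25% lay above the control in this way and 0.661% below it, and 0.0536% were called higher and 0.00893% lower (0.0625% in all). The siMbd6 and siNsun2 comparisons share the KO siNC libraries with each other and with the comparison of KO and WT.

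Depletion of Nsun2, which encodes an RNA cytosine methyltransferase, gave no call among the 5 windows and 4 bodies tested, and no window at all was called higher and 0.0186% lower, with 267 windows at an unadjusted p under 0.05. Groups did not overlap at 0.549% of windows as higher and 1.57% as lower, and at 0.688% and 1.43% of gene bodies, of which 0.00893% were called lower. Foxk1 had 0.565, 0.785 and 1.103 kb with siNsun2, with a mean above 99.6% of windows in that group, and 0.250, 0.329 and 0.266 kb with siMbd6. These knockdowns did not overlap at the Foxk1 window (-0.54 ± 0.276 kb, limma adjusted p = 1), and 0.307% of all windows lay lower in the same way and 3.63% higher, with 0.149% called higher. The Foxk1 body lay lower likewise (0.554% of bodies) and the Mbd5 body higher (3.01%), where 0.0447% of bodies were called higher. Foxk2, another forkhead partner of BAP1, had 0.232, 0.227 and 0 kb with siNsun2 and 0 kb in all 3 KO siNC libraries (limma adjusted p = 1).

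In HSPCs, the Mbd6 window, which is the Ddit3 promoter region, was the only one of the 10 windows covered in more than 1 WT library. Over gene bodies, the Mbd5 repeat at 298.5 kb was listed in WT shNC replicates 1 and 3 (0.410 and 0.288 kb) and in KO shNC replicate 1 (0.339 kb). The Mbd6 window had 0.425, 0.324 and 0.493 kb in WT shNC (0.414 ± 0.0850). It was at 0 in all 3 KO shNC libraries and had 0.450, 0.410 and 0.314 kb in KO shMbd6. The difference of KO from WT was -0.41 ± 0.0631 kb (limma adjusted p = 0.00223), and it was 1 of 2 windows tested, beside 22.7% of all windows called lower. KO shMbd6 exceeded KO shNC by 0.39 ± 0.0631 kb (limma adjusted p = 0.00110). Asxl1 had 0.258, 0.476 and 0.389 kb in KO shMbd6 and was at 0 in both other groups, a difference of 0.37 ± 0.0630 kb (limma adjusted p = 0.00133). Both windows tested were higher with shMbd6, beside 72% of all windows called higher, so this was the common behaviour of windows in that comparison. Asxl1 passed the filter on low values only through the shMbd6 libraries and so had to be higher there.

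The Asxl1 gene body was also called higher with shMbd6, with 0.159, 0.117 and 0.056 kb against 0 (limma adjusted p = 0.0346), beside 53.1% of gene bodies. Like the window, it was covered in the shMbd6 libraries alone, passed the filter through them and could only be higher. The call was lost after scaling (limma adjusted p = 0.135) and without any 1 of the KO shNC libraries (limma adjusted p = 0.0918 to 0.0933). All of that length was the end of the promoter peak that reaches past the start site. Mbd5 promoter coverage was listed in KO shMbd6 replicate 1 (0.333 kb) and Asxl2 in replicate 2 (0.519 kb), and no peak at all was listed in the windows of the 10 genes in KO shNC. The KO shNC lists were the shortest of the HSPCs and had the most spike-in peaks, and their part in these differences was not tested. After scaling to equal covered length, 27.9% of all windows were called higher with shMbd6, and Mbd6 (limma adjusted p = 0.0336) and Asxl1, whose direction the filter fixed, were among them. The Mbd6 window was also still lower in KO than WT (limma adjusted p = 0.00148), beside 17.9% of all windows.

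In K562 cells, H2AK119ub peaks at these genes were few. BAP1 had 0.586, 0 and 0.333 kb in its window in WT siNC and 0 in all 9 KO libraries, and with 2 covered libraries of 12 it was not tested. Its peaks lay between -663 and -78 bases relative to the start site. ASXL2 had promoter peaks in 1 WT siNC, 1 KO siNC and 2 KO siNSUN2 libraries. ASXL1 and MBD5 were covered only in KO siMBD6 replicate 3 (0.230 and 0.259 kb). ASXL2 was the only window tested, and no comparison called it, beside 0.0814% of windows called higher and 0.0407% lower in KO. No window was called with siMBD6 or siNSUN2 against siNC, where 264 and 362 windows had an unadjusted limma p under 0.05.

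FOXK2 had the most recurrent K562 peak of the 10 genes, over the tandem repeat 66.7 kb into the gene, in 8 of 12 libraries, with a fold enrichment of 6.15 to 8.69. Its middle lay 280 bases after an alternative FOXK2 start site. KO siNC libraries had 0.408, 0.328 and 0.300 kb over the gene body, KO siMBD6 libraries 0.322, 0.278 and 0 kb, and KO siNSUN2 libraries 0, 0.269 and 0 kb. The siNSUN2 libraries all lay below the siNC libraries, as did 1.21% of all gene bodies, but the difference of -0.26 ± 0.120 kb did not pass (limma adjusted p = 0.406). FOXK1 had its region at 63.0 kb in 1 library each of WT siNC, KO siMBD6 and KO siNSUN2.

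BAP1 peaks were few at the genes of its own complex, as they were over all genes. Neither BAP1 library of WT mES cells had a peak in any of the 10 TSS windows, beside 1.05% of all windows with a peak in either library and 0.237% with one in both. Asxl3 was the only gene with a BAP1 peak in its body, in replicate 1 alone, beside 4.20% of gene bodies with one in either library. That peak, 94641 to 94932 bases after the start site, overlapped the repeat-masked H2AK119ub region at 94.9 kb, which was listed in 8 libraries. With lists of 2013 and 2233 BAP1 peaks, a shallow library and an unbound gene cannot be told apart.

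The promoters of 8 of the 10 genes were found in the RefSeq promoter set (GRCm38.p6, 250 bases before to 50 after the start site), which did not match Asxl3 and Foxk1. They held 13 to 59 CpGs, beside a median of 14 over 16522 promoters. Foxk2, with 59, had more than 99.9% of promoters, and Bap1, with 50, more than 98.9%, while Asxl1, with 13, had more than 46.8%. Hcfc1 and Ogt, which had no peak, held 21 and 20. The letters AAGATGGC, a core of the YY1 motif, were found on either strand in Hcfc1 only, beside 3.29% of promoters, and the ETS letters CCGGAAGT in Asxl2 only, beside 5.52%. The NRF1 motif (1.37% of promoters), the BANP motif (0.726%) and the forkhead letters TGTTTAC (2.97%) were found in none of the 8.

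Other genes were followed with a list of 26, most of which write, erase or read H2AK119ub, while Tet2, Nsun2, Ybx1, Alyref and Pspc1 belong to the writing, reading or oxidation of RNA 5-methylcytosine. In siNC mES cells, 16 of 20 of their windows tested were lower in KO and 0 higher, beside 71.9% of all windows called lower, with a median difference of -0.42 kb, beside -0.42 kb over all windows. Brca1 and 5 others of the 16 were covered in the 3 WT siNC libraries alone and could only be lower. The largest falls were at Pcgf1 (-1.25 ± 0.193 kb, SE, limma adjusted p = 0.000287), Brca1 (-0.88 ± 0.173 kb), Pcgf3 (-0.74 ± 0.128 kb) and Usp3 (-0.59 ± 0.166 kb). Pcgf1 and Pcgf3 encode PRC1 subunits, BRCA1 is an H2A ligase of the DNA damage response and USP3 is another H2A deubiquitinase. Nsun2 had 1.166 to 1.431 kb over its body in WT siNC and 0.404 to 0.860 kb in KO siNC (limma adjusted p = 0.00268). It was 1 of 10 list bodies called lower of 15 tested, beside 67.9% of all gene bodies. The list calls were not recounted after scaling to equal covered length, which left 35.8% of all windows called lower. Tet2 was at 0 in all KO siRNA libraries and all HSPC libraries, WT included, window and body. In WT siNC it was covered in only 1 of 3 libraries, with 0.217 kb in the window and 0.15 kb in the body. In untransfected mES cells 0 of 23 windows were called. In HSPCs, 5 of 9 windows were higher with shMbd6, beside 72% of all windows, among them Bmi1 (0.67 ± 0.265 kb, limma adjusted p = 0.0489) and Usp3 (0.65 ± 0.146 kb, limma adjusted p = 0.00505), and 1 of 9, Ybx1, was lower in KO than WT, beside 22.7% of all windows (-0.36 ± 0.0557 kb, limma adjusted p = 0.00239).

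Windows whose covered length followed that of 3 of the genes most closely over the 27 mouse libraries were, for Bap1, Kcnh4 (Pearson r = 0.916), Hcrt (0.916) and Slmap (0.910). For Mbd6 they were Lrrn4 (0.947), Hip1 (0.931) and S100pbp (0.925), and for Asxl1 they were Psmc6 (0.927), Zc3h6 (0.923) and Hist1h4i (0.912). These were chosen from 7820 to 7823 windows covered in at least 10 libraries, and the libraries share the length of their peak lists, which moves all such values together.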

How the data were processed

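CUT&Tag libraries of H2AK119ub and BAP1 were each represented by one peak list. The authors trimmed reads with Trimmomatic 0.39, mapped them with Bowtie2 2.4.1 to mm10 or hg38 together with Drosophila, removed duplicates with Picard and called broad peaks with MACS2 (broad cutoff 0.01). Per peak, the deposited files give start and end positions, a score, a fold enrichment ratio, and a −log10 p and −log10 q, as the authors' peak caller wrote them. The lists carry no spike-in normalisation.

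Covered lengths were computed in Python 3.11.15 (checked against bedtools 2.31.1) for GENCODE vM21 and v44 protein-coding genes, in windows of 5 kb to each side of the TSS and over gene bodies. Features with a peak in 3 or more of an experiment's libraries entered limma 3.58.1 (R 4.3.3) as covered kb, with all groups of an experiment in 1 model without a replicate block, at a Benjamini-Hochberg adjusted p under 0.05 over all features. The 10 genes, the list of 26 and all tests were chosen with earlier results of these data known. Named genes were all 10, Tet2, Nsun2 and up to 4 called genes of the list per comparison with the largest difference. The test was also run on simulated windows with known changes. Repeat masking was read for mouse only. Exact permutation tests of 3 against 3 libraries cannot go below p = 0.1 and were not used. Alternatives are given in the closing section.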

Additional observations from a re-analysis of the deposited data

Results flagged for a closer look

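The KO minus WT difference in H2AK119ub-covered length differed between siNC-treated and untransfected mES cells at 3 TSS windows, by a test of that difference. The size was -0.52 kb at Mbd5 (limma adjusted p = 0.00513), -0.75 kb at Mbd6 (limma adjusted p = 0.00470), where the peaks lie at the Ddit3 promoter, and -0.70 kb at Asxl3 (limma adjusted p = 0.0208). At each of the 3 windows the WT siNC libraries were all covered and the KO siNC libraries all at 0, and the same test called 45% of all windows lower. With libraries scaled to equal covered length none of the 3 passed (limma adjusted p = 0.0618, 0.188 and 0.234). The Asxl3 call was also lost without WT replicate 1, KO replicate 2 or WT siNC replicate 2 (limma adjusted p = 0.0575, 0.0546 and 0.0563).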

How the results depend on the processing

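Counts of genes called were recomputed under each other setting, and 271 such values stayed within 1.5 times the main count, whereas 21 were lost, 5 were gained and 7 moved further. A main count of 0 that stayed at 0 is among the 271, and most main counts were 0. The 21 lost and 7 moved values all came from results with at least 1 gene called. Of 3 windows called lower in KO siNC mES cells, 1 was called after scaling to equal covered length, 0 with peaks of −log10 q of at least 5, and 1 to 3 with 1 library left out. The 1 body called there became 2 with a replicate block, 0 after scaling, 0 on log2(covered kb + 0.1), and 0 to 2 with 1 library left out, and the Foxk1 body difference reversed to 0.12 kb after scaling. In HSPCs the 1 window lower in KO became 0 with the stricter peaks. The 2 windows higher with shMbd6 became 0 with the stricter peaks and 1 to 2 with 1 library left out, and the 1 body became 0 with a replicate block, 0 after scaling, 0 with the stricter peaks and 0 to 1 with 1 library left out. The 3 windows whose KO effect differed between mES experiments became 0 after scaling and 0 with the stricter peaks, and 2 to 4 with 1 library left out. For bodies, 0 became 1 with a replicate block, 1 with the stricter peaks and 0 to 2 with 1 library left out. Asxl1 in that test reversed to 0.068 kb with the stricter peaks. The 1 gene with a BAP1 peak became 0 with the stricter peaks and 0 to 1 with 1 library left out. Stricter peaks and fewer libraries leave fewer features to test, and the cause of the other changes was not tested.

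Over all features, the share of calls that were lower in HSPC KO moved from 99.9% to 79.7% of windows and from 97.0% to 73.0% of bodies with scaling, and the share lower with shMbd6 from 0.131% to 14.7% and from 0.537% to 23.3%. Deviations of same-numbered libraries of different groups were not clearly correlated in every pair. The lowest correlations of deviations were 0.017, 0.00163, -0.037 and -0.024 in the untransfected, siRNA, HSPC and K562 experiments. In mES cells, however, replicate 1 had the shortest peak list of every group. Of the siRNA mES libraries 10 of 12 were closest to their own number, and of the HSPC libraries 0 of 9. The median correlation in the siRNA experiment was 0.0791 for the same number and -0.0495 for other numbers, and in HSPCs -0.0132 and 0.00969. Whether numbers mark a pairing in mES cells is thus unclear, and the replicate block is given as an alternative only. Depth is unknown, so a gene at 0 may be unmarked or too thinly sequenced.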
